A study of Mus musculus with 7 samples.

Results

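The genes described here make the machinery that licenses replication origins, fires them and runs the DNA replication fork. They were taken by symbol from a list of 49 genes, each represented by its brightest probe set over the 7 arrays among probe sets that carry 1 gene symbol. Of the 49, 46 had such a probe set, and all 46 lay above the filter on low signals and entered the tests, out of 8077 genes tested in all. Chaf1a, Clspn and Gins2 were not analysed here. The study measured RNA on 7 microarrays, 1 per sample, in LSK cells sorted from mouse bone marrow, the gate without markers of mature lineages and with Sca-1 and c-Kit. Stem cells and early blood progenitors share this gate, although the sample titles speak of stem cells. The 4 Lkb1 KO samples (numbers 4 to 7) came from adult Lkb1 L/L mice that carry rosa26CreERT2, a tamoxifen-activated Cre driven from a ubiquitous locus, so that deletion was not limited to blood cells. The 3 Lkb1 WT samples (numbers 5 to 7) came from Lkb1 L/L mice without Cre. The strain was C57BL/Ka-CD45.2:Thy-1.1 in both groups, all mice received tamoxifen for 5 days, and cells were sorted 1 day after the last dose, so Cre itself differed between the groups as well as Lkb1. Whether each sample came from its own animal is not stated in the labels, and p-values therefore cover only sample-to-sample spread, part of which may be technical.

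Replication is prepared before S phase, when the origin recognition complex, with CDC6 and CDT1, loads rings of MCM2 to MCM7 onto DNA, a step called licensing, and geminin later blocks CDT1 so that an origin is not licensed again. In S phase the CDC7 kinase with DBF4 and a set of loading factors turn the ring into the active helicase, which carries CDC45 and the GINS complex, and polymerases, clamp and clamp loader assemble behind it while histone chaperones rebuild chromatin. Most of these genes are transcribed around the G1 to S transition under E2F factors. Adult stem cells within the LSK gate are mostly quiescent, whereas the progenitors in the same gate divide often. Lkb1, the product of the gene Stk11, is a kinase that acts on AMPK and related kinases, and its early loss in this gate is the subject of the comparison.

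The arrays differed in overall brightness, with a trimmed mean deposited signal of 386 ± 30.6 in KO and 296 ± 59.1 in WT (SD, n = 4 and 3, two-sided exact permutation p = 0.0286, the smallest possible here), and signals were therefore quantile-normalized. All differences are thus relative to the bulk of genes. Control probes at both ends of Actb gave a 3'/5' ratio, which is higher for shorter RNA, of 11.2 to 12.1 on the KO arrays, against 12.3 to 12.8 on the WT arrays (two-sided exact permutation p = 0.0571). Stk11 had normalized signals of 129, 111, 86.4 and 70.8 in KO 4 to 7, against 182, 127 and 147 in WT 5 to 7. These overlap, the difference was -0.56 ± 0.19 log2 units (limma adjusted p = 0.117), and since the probe set's place relative to the deletion is unknown it does not check the labels. Of the markers that define the gate, Kit was bright on all arrays (1308 to 1399 in KO and 1595 to 1970 in WT), and Sca-1, the product of Ly6a, was not analysed here. Of 6 T and NK cell genes with a probe set none exceeded the background signal on all 7 arrays, and 3 of 7 B cell genes did, namely Cd79b, Vpreb1 and Ms4a1, while Cd79a and Pax5 exceeded it on none.

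Replication genes were higher in KO than in WT across most of the machinery, by modest amounts. Of the 46 tested, 10 rose and none fell (limma, Benjamini-Hochberg adjusted p under 0.05 over all 8077 genes), where 2.48% of all genes rose and 2.96% fell (5.44% in either direction). With the scaling as deposited, where the brighter KO arrays shift the median of all genes to 0.34 log2 units, 32 members rose and none fell, and 96.7% of all calls were higher, against 45.6% after quantile normalization and 76.3% with median centring. The 10 included the helicase subunit genes Mcm5 and Mcm2, the helicase activators Gins1 and Cdc45, and the histone supply genes Nasp and Slbp. The rest were the fork protection gene Tipin, the primase gene Prim1, and the clamp loader and clamp genes Rfc5 and Pcna. The rises of the 10 ran from 1.34-fold to 1.91-fold. In total 42 of the 46 had a positive difference, against 47.6% of all genes, and the median was 0.36 log2 units, against -0.02 over all genes tested. At an unadjusted p under 0.05, 31 members were higher, against 11.7% of all genes, and none was lower. Every KO value lay above every WT value for 29 members, against 11.4% of all genes, and for no member did every KO value lie below every WT value (12.7% of all genes).

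**Figure D1:**
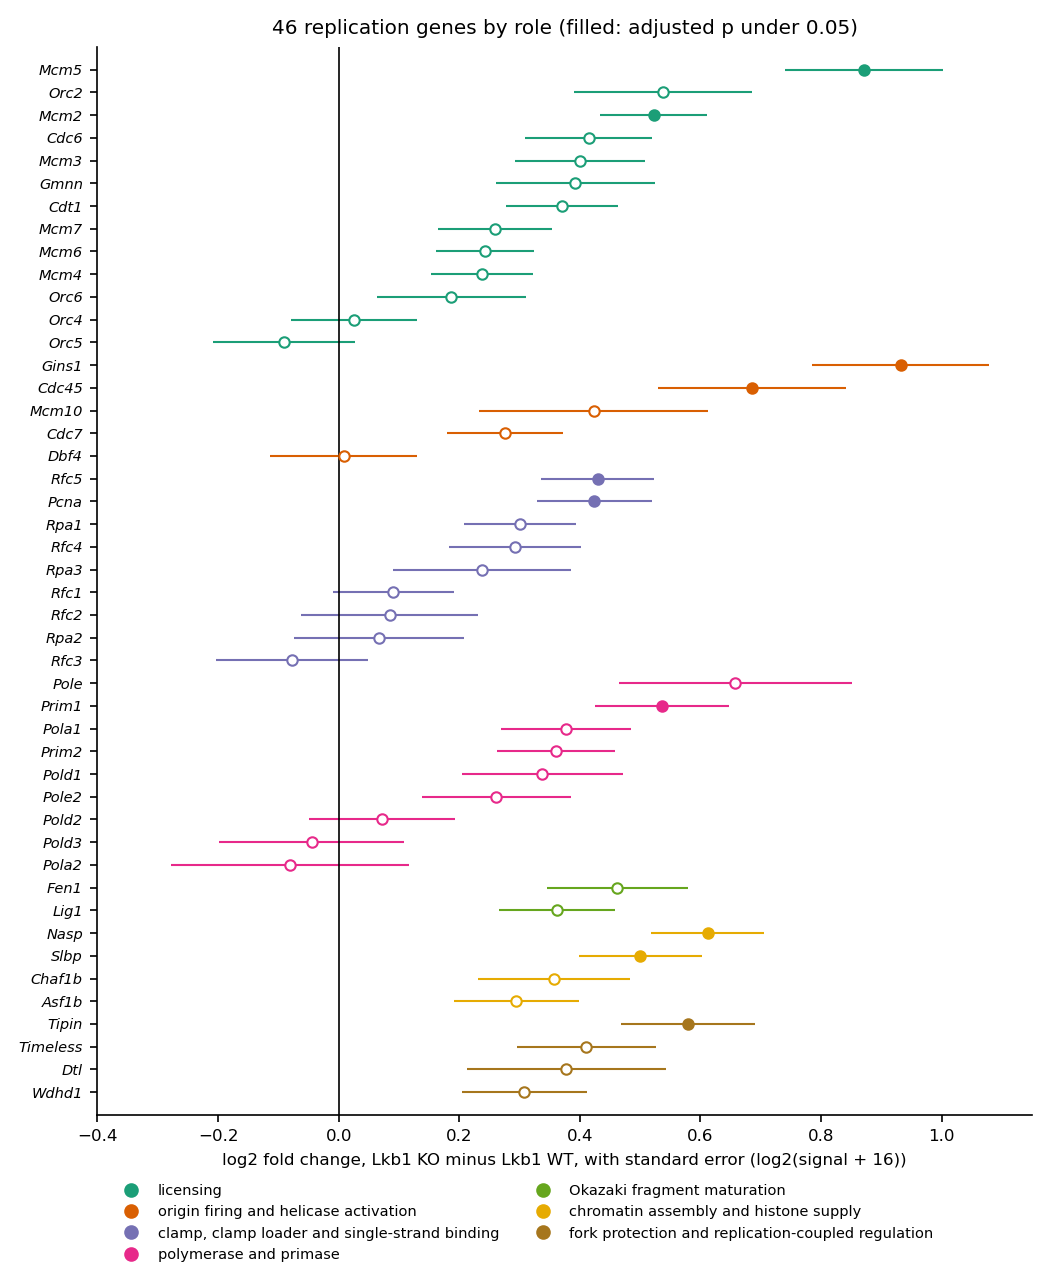
Log2 fold change, Lkb1 KO minus Lkb1 WT, with its limma standard error, for the 46 replication genes, coloured and ordered by role, with filled points for those past the adjusted threshold of 0.05. Points lie right of 0 for 42 genes, Gins1 and Mcm5 stand furthest right, and all 10 filled points are right of 0.

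All 10 genes kept a positive difference without any 1 of the 7 samples. That largely follows from groups that did not overlap, so it adds no support. The number of calls depended on each sample. The number was 3 without KO 4, 3 without KO 5, 4 without KO 6 and none without KO 7, and was 2 without WT 5, 2 without WT 6 and 1 without WT 7, with medians of 0.31 to 0.41 log2 units in these 7 fits. At an unadjusted p under 0.05, 23 to 32 members were higher in them, 29 without KO 7. Shares of all genes at that level in these fits are not given here, so the counts alone do not set the members apart. Mcm5 passed in 6 of the 7 fits, Gins1 in 4, Nasp in 3 and Mcm2 in 2, and the other 6 of the 10 passed in none. With the Actb ratio in the fit as a covariate no member passed, and the median was 0.24. In that fit 7 members were higher at an unadjusted p under 0.05, where 830 of all 8077 genes were higher or lower. The share of all genes that were higher is not given here, so this count does not set the members apart. The ratio was lower on every KO array than on every WT array, so this fit cannot well separate it from genotype.

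Most genes of mature neutrophils and monocytes, cells that the gate should leave out, moved the other way. Of 14 such marker genes 12 had a probe set and were tested, 9 fell and none rose. The other 3 were Elane at 0.41 log2 units (limma adjusted p = 0.12), Itgam at 0.40 (limma adjusted p = 0.0663) and Mpo at 0.16 (limma adjusted p = 0.289), none of which passed, although each read higher on every KO array than on every WT array, and Elane and Mpo are expressed by progenitors too. The 12 genes' summed normalized signal was 27340.0 to 32128 in KO, against 45978 to 59661 in WT. Ngp, a defining gene of neutrophil granules, read 2000.3 to 2829 in KO, against 7552 to 10659.9 in WT, and Lcn2, Ltf and Camp were likewise above background on all 7 arrays. A lower share of such cells and less RNA per cell cannot be told apart in sorted bulk samples, nor can more cells in S phase and more RNA per cell, and the part of these cells in the replication result was not tested. Among 8 LSK markers tested Hlf and Kit fell and Cd48 rose. The others did not pass, with Meis1 at -0.43, Procr at -0.36, Flt3 at -0.28, Cd34 at -0.08 and Slamf1 at 0.06 log2 units. The sum over 9 LSK genes was 12643 to 13625 in KO, against 15027 to 15964 in WT. Of 4 mast cell and basophil genes tested 2 rose, with a summed signal over 5 genes of 2081 to 2677 in KO, against 1448 to 1524 in WT. Of 8 erythroid genes tested Hba-a2 rose and Ermap fell, and the sum over 10 genes was 3668 to 4737 in KO, against 5031 to 6611 in WT. Of 6 megakaryocyte genes tested Plek fell and none rose, with a sum over 7 genes of 2891 to 4466 in KO, against 5321 to 5652 in WT. The part of these cell types in the replication result was not tested either.

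Licensing genes comprised 13 members, the origin recognition complex genes Orc2, Orc4, Orc5 and Orc6, the loaders Cdc6 and Cdt1, the inhibitor geminin (Gmnn) and Mcm2 to Mcm7. Mcm5 and Mcm2 rose, none fell, 10 were higher at an unadjusted p under 0.05, and the median was 0.37 log2 units. Mcm5 had normalized signals of 275, 229.6, 251 and 298 in KO 4 to 7, against 144, 113 and 155 in WT 5 to 7. The lowest KO value stood well above the highest WT value, and the difference was 0.87 ± 0.13 log2 units (limma adjusted p = 0.0198), or 1.83-fold. Mcm2 had 4783, 4705, 4407 and 4783 in KO 4 to 7, against 3109.7, 3478 and 3158 in WT 5 to 7. The groups were again apart, by 0.52 ± 0.09 log2 units (limma adjusted p = 0.023).

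The other 4 subunits of the same ring had smaller differences that did not pass. Mcm3 had normalized signals of 1962, 2024, 1936 and 2185 in KO 4 to 7, against 1711, 1561 and 1339 in WT 5 to 7, a difference of 0.40 ± 0.11 (limma adjusted p = 0.0661). Mcm4 had 3439.7, 3563, 3358 and 3572 in KO 4 to 7, against 3001, 3071 and 2790.5 in WT 5 to 7 (0.24 ± 0.08, limma adjusted p = 0.129). For both genes every KO array read above every WT array. Mcm6 had 4853, 4736, 4522 and 4626 in KO 4 to 7, against 3878, 4066 and 3926 in WT 5 to 7 (0.24 ± 0.08, limma adjusted p = 0.113). Mcm7 had 9532, 9325, 9144 and 9721 in KO 4 to 7, against 8736, 7744 and 7217 in WT 5 to 7 (0.26 ± 0.10, limma adjusted p = 0.137). All 6 subunit genes thus had groups that did not overlap, with differences from 0.24 to 0.87 log2 units, and differences between subunits were not tested.

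Among the loading factors, Cdt1 was at 0.37 ± 0.09 log2 units (limma adjusted p = 0.0568) and Cdc6 at 0.41 ± 0.11 (limma adjusted p = 0.0586), each with groups apart and each just short of the threshold. Geminin, which inhibits Cdt1, was at 0.39 with overlapping groups (limma adjusted p = 0.113). The origin recognition genes were uneven. Orc2 was at 0.54 with groups apart (limma adjusted p = 0.0687), and Orc6 at 0.19. Orc4 was at 0.03, with a 95% interval of -0.22 to 0.27, and Orc5 at -0.09, with -0.36 to 0.18. For these last 2 subunits the intervals leave out a difference as large as the median of the licensing genes.

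Promoter sequence from RefSeq (mouse build GRCm38.p6, 250 bases before to 50 after a gene's annotated start) was at hand for 41 of the 49 genes, with 50 entries. It was searched on both strands for TTTNNCGC, a loose form of the site that E2F factors bind, and for GGGCGG, the core of the site that SP1 binds; no match of one overlapped a match of the other. TTTNNCGC was found in 14 of the 50 promoters (28.0%), against 5.17% of all 32851 promoters and 8.51% of the 8581 promoters of genes tested. GGGCGG was found in 68.0%, against 62.9% of promoters of genes tested. Among licensing genes 6 of the 11 with an entry held TTTNNCGC. It stood in 1 of the 8 promoters of members that rose, and in 12 of 40 promoters of tested members that did not pass. A match is a description of letters and not evidence of binding. The promoters of Mcm5 and Nasp, the members of lowest p, are shown in full as a pair with and without a match, from 5' to 3' along the gene's strand, with matches of TTTNNCGC in capitals. In Mcm5 a match on each strand overlaps the other.
Mcm5 (chr8:75109259-75109558, plus strand): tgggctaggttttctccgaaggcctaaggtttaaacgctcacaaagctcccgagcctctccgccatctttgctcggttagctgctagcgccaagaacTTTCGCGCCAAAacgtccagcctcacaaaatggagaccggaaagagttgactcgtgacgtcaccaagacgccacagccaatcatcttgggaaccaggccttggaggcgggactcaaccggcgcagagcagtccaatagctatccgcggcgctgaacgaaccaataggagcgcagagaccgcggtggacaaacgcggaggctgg
Nasp (chr4:116627902-116628201, minus strand): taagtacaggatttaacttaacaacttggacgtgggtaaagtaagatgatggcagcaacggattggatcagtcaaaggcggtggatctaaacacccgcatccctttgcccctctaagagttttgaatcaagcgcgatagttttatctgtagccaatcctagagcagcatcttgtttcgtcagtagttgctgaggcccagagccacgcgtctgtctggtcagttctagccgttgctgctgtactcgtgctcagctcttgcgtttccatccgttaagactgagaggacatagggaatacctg
The 5 other licensing genes with a match are shown by the 40 bases around their first match, and the last letters in capitals for Mcm3 begin a further match.
Mcm3 (chr1:20820270-20820309, minus strand): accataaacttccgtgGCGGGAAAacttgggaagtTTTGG
Mcm6 (chr1:128359792-128359831, minus strand): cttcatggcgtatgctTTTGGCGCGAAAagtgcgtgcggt
Mcm7 (chr5:138172025-138172064, minus strand): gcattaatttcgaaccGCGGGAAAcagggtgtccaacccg
Cdc6 (chr11:98907997-98908036, plus strand): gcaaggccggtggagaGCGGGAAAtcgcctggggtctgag
Cdt1 (chr8:122568025-122568064, plus strand): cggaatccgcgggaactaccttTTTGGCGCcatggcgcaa

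Of the origin firing and helicase activation genes, 5 were tested, 2 rose and none fell, with a median of 0.42 log2 units. Gins1, a subunit of the GINS complex that joins the MCM ring in the active helicase, showed the largest difference of all members, with normalized signals of 710.3, 782, 572 and 716 in KO 4 to 7, against 433, 329 and 312 in WT 5 to 7. Each KO array exceeded each WT array, by 0.93 ± 0.15 log2 units or 1.91-fold on average (limma adjusted p = 0.0213). Cdc45, the other partner of that helicase, had 193, 148, 172 and 185 in KO 4 to 7, against 76.4, 115 and 119.8 in WT 5 to 7. It rose by 0.69 ± 0.16 log2 units (limma adjusted p = 0.0425), passed in none of the fits without 1 sample, and WT 5 was the lowest array. The kinase gene Cdc7 was at 0.28 ± 0.10 with groups apart (limma adjusted p = 0.124). Its activating partner Dbf4 was at 0.01, with a 95% interval of -0.27 to 0.29. Mcm10, a loading factor, was at 0.42 with overlapping groups, since WT 6 at 1509 read above 2 of the KO arrays.

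**Figure D2:**
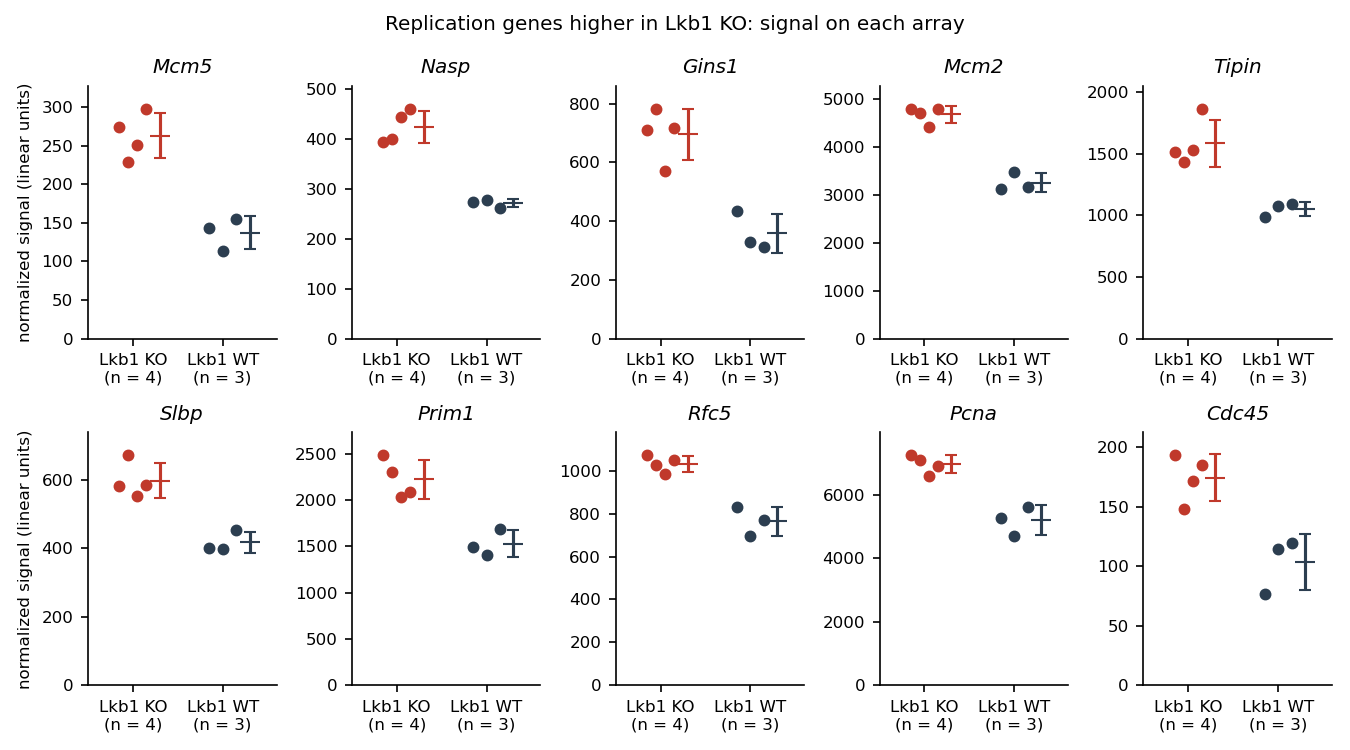
Quantile-normalized signal on each array for the 10 replication genes past the threshold, one panel per gene with its own axis from 0, with Lkb1 KO (4 arrays) left and Lkb1 WT (3 arrays) right and the mean with its SD beside the points. In each panel the lowest KO point lies above the highest WT point, as for Mcm5 at 229.6 and 155.

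The clamp, clamp loader and single-strand binding group held 9 members, of which 2 rose and none fell, with a median of 0.24 log2 units. PCNA is the ring that tethers polymerases to DNA, and Pcna had normalized signals of 7254, 7114, 6614 and 6925 in KO 4 to 7, against 5277, 4711 and 5637 in WT 5 to 7. The rise was 0.42 ± 0.10 log2 units (limma adjusted p = 0.0417), with the lowest WT value in WT 6. Rfc5, a subunit of the loader that opens that ring, had 1072, 1025, 986 and 1052 in KO 4 to 7, against 829.3, 696 and 769 in WT 5 to 7, a rise of 0.43 ± 0.09 (limma adjusted p = 0.0385). Neither passed in the fits without 1 sample. The other loader subunits were not alike. Rfc4 was at 0.29 with groups apart (limma adjusted p = 0.145), while Rfc1, Rfc2 and Rfc3 were at 0.09, 0.08 and -0.08 with overlapping groups. Rpa1, the large subunit of the protein that coats single-stranded DNA, was at 0.30 ± 0.09 with groups apart (limma adjusted p = 0.0919), and its partners Rpa2 and Rpa3 were at 0.07 and 0.24 with overlapping groups.

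Of 9 polymerase and primase genes 1 rose and none fell, with a median of 0.34 log2 units. It was Prim1, the catalytic primase subunit that starts each new strand, with normalized signals of 2483, 2301, 2029 and 2086 in KO 4 to 7, against 1493, 1402 and 1691 in WT 5 to 7. The rise was 0.54 ± 0.11 log2 units (limma adjusted p = 0.034) and passed in none of the fits without 1 sample. It was 0.22 in the gene's other probe set, with overlapping groups. On the WT arrays that other probe set was the brighter, with a mean of 1716 against 1529. With all probe sets averaged, Prim1 was at 0.38 (limma adjusted p = 0.0742) and no gene of this group passed. The call thus rests on the choice of probe set. Prim2, the other primase subunit, had 1828, 1913, 1599 and 1825 in KO 4 to 7, against 1419, 1447 and 1304 in WT 5 to 7, with groups apart and a difference of 0.36 ± 0.10 (limma adjusted p = 0.0663). Pole, the catalytic subunit of the leading-strand polymerase, had the largest difference of the group at 0.66 ± 0.19, but the KO arrays were spread, with KO 4 and KO 5 at 629 and 735 and KO 6 and KO 7 at 449.7 and 482, and it did not pass (limma adjusted p = 0.0813). Pola1, which extends the primer, was at 0.38 with groups apart. Pold1, the catalytic subunit of the lagging-strand polymerase, was at 0.34 and the accessory gene Pole2 at 0.26, both with overlapping groups. The accessory subunits Pold2, Pold3 and Pola2 were at 0.07, -0.04 and -0.08. Of these Pola2 had the widest 95% interval, -0.53 to 0.37.

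Lagging-strand fragments are trimmed by the flap nuclease FEN1 and sealed by DNA ligase I, and neither gene passed although the groups were apart for both. Fen1 had normalized signals of 3915, 4618, 4286 and 4790.2 in KO 4 to 7, against 2935, 3645 and 3008 in WT 5 to 7, a difference of 0.46 ± 0.12 log2 units (limma adjusted p = 0.0573). Lig1 had 1099, 1074, 932 and 1081 in KO 4 to 7, against 854, 769.5 and 807 in WT 5 to 7, a difference of 0.36 ± 0.10 (limma adjusted p = 0.0642). The KO values of Lig1 stood close together apart from KO 6, which was the lowest, and those of Fen1 were more spread.

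Of the 4 chromatin assembly and histone supply genes tested, 2 rose and none fell, all 4 had groups that did not overlap, and the median was 0.43 log2 units. Nasp, a chaperone that holds a reserve of histones H3 and H4, had normalized signals of 393, 399, 443 and 459 in KO 4 to 7, against 274, 277 and 262 in WT 5 to 7. The WT arrays were close to one another and each KO array was above them, a rise of 0.61 ± 0.09 log2 units (limma adjusted p = 0.0198). Slbp, whose product binds the stem-loop of histone messages, had 580.2, 671, 553 and 584 in KO 4 to 7, against 400.0, 399 and 452 in WT 5 to 7, a rise of 0.50 ± 0.10 (limma adjusted p = 0.0316) that passed in none of the fits without 1 sample. Chaf1b, a subunit of the assembly factor that PCNA recruits, was at 0.36 ± 0.13 (limma adjusted p = 0.127), and Asf1b, which hands histones to it, at 0.29 ± 0.10 (limma adjusted p = 0.125).

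Of the 4 fork protection and replication-coupled genes tested, 1 rose and none fell, with a median of 0.39 log2 units. TIPIN and TIMELESS form a complex that steadies the fork and relays stalling signals. Tipin had normalized signals of 1519, 1436, 1531 and 1866 in KO 4 to 7, against 990.2, 1075 and 1094 in WT 5 to 7, with KO 7 the highest, a rise of 0.58 ± 0.11 log2 units (limma adjusted p = 0.0283) that passed in none of the fits without 1 sample. Timeless had 620.1, 789.8, 611 and 675 in KO 4 to 7, against 539, 464 and 501 in WT 5 to 7, also with groups apart, but its difference of 0.41 ± 0.12 did not pass (limma adjusted p = 0.0729). Wdhd1, which couples the helicase to the priming polymerase, was at 0.31 with groups apart (limma adjusted p = 0.112). Dtl, part of the ligase that marks CDT1 for destruction in S phase, was at 0.38 with overlapping groups (limma adjusted p = 0.198).

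The arrays of a group were not equal. The median over the 46 members of log2 signal minus the gene's mean was 0.17, 0.16, 0.04 and 0.18 in KO 4 to 7, against -0.13, -0.18 and -0.23 in WT 5 to 7. KO 6 was the lowest of the KO arrays for 26 members and the highest for 1, and its median lay nearest to WT, while WT 7 was the lowest of the WT arrays for 20. Of the members 10 lay within 0.1 log2 units of 0, namely Orc4, Orc5, Dbf4, Rfc1, Rfc2, Rfc3, Rpa2, Pola2, Pold2 and Pold3. Every role group with more than 4 members tested holds at least 1 of them.

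**Figure D3:**
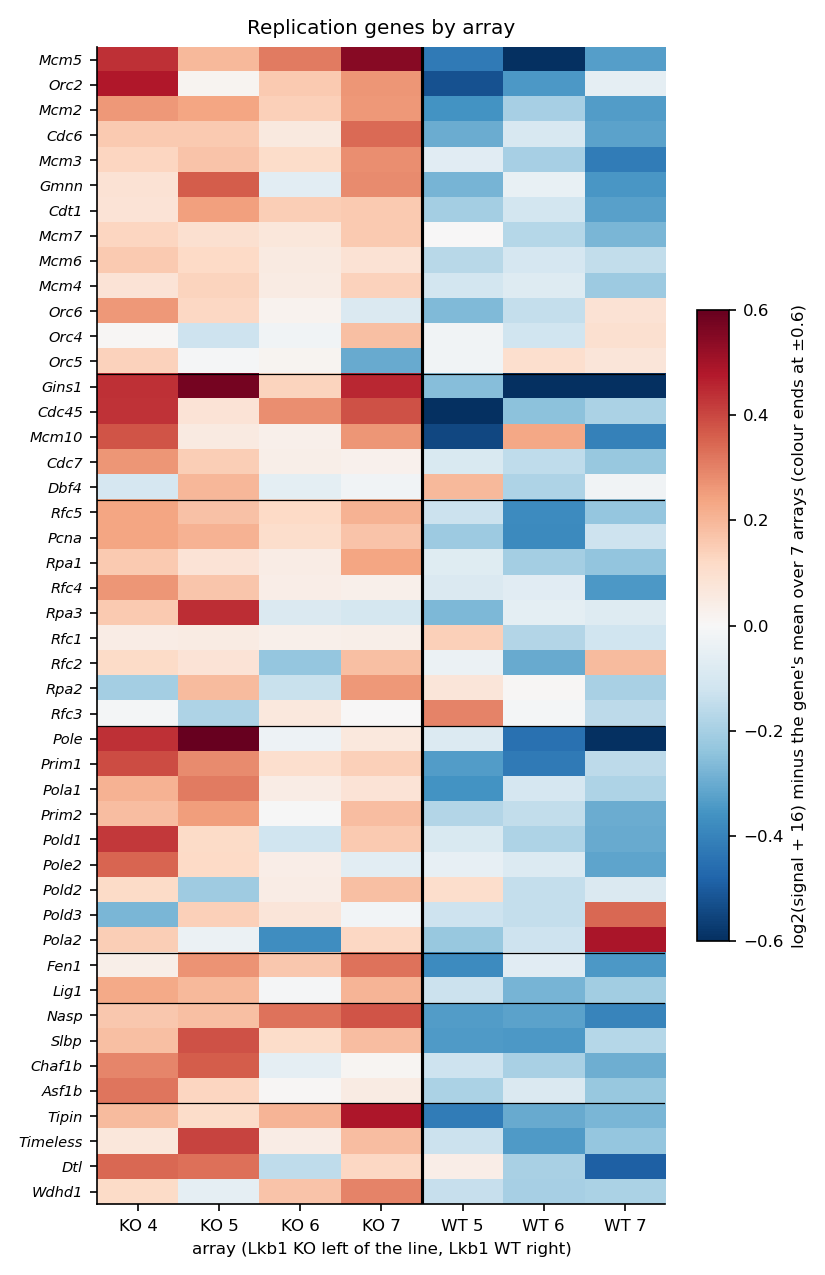
Log2(signal + 16) minus the gene's mean over the 7 arrays for the 46 replication genes (rows, by role, divided by thin lines) on each array (columns, Lkb1 KO left of the thick line, Lkb1 WT right), red above and blue below the mean. The KO 6 column, whose median is 0.04, is the palest of the KO columns, and rows such as Orc4, Dbf4 and Pold3 show no split between the groups.

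The deposited table holds 81 probe sets for the members, 74 of them above the filter, and 20 members had more than 1 above it. All 28 dimmer probe sets above the filter had a positive difference, 15 of them with groups that did not overlap. They are further readings of the same 20 genes on the same arrays. Counts for the dimmer probe sets of all genes are not given here, so these do not add support. For 18 of the 20 genes every probe set had the same sign. The exceptions were Pold3, at -0.04 in its brightest and 0.20 in its other probe set, and Rfc3, at -0.08 and 0.76. The second probe set of Rfc3 had a mean of 133 in KO and 74.1 in WT with groups apart, so the value given for this clamp loader gene rests on the choice of probe set. In 20 of 28 cases the dimmer probe set showed the larger difference. For Mcm7 the brightest probe set had a mean of 9431 in KO and 7899 in WT, and the dimmest 341 and 206, with differences of 0.26 and 0.72 log2 units. For Cdt1 they were 0.37 and, in the dimmer probe set, 0.80, and for Rpa2 they were 0.07 and 0.67.

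**Figure D4:**
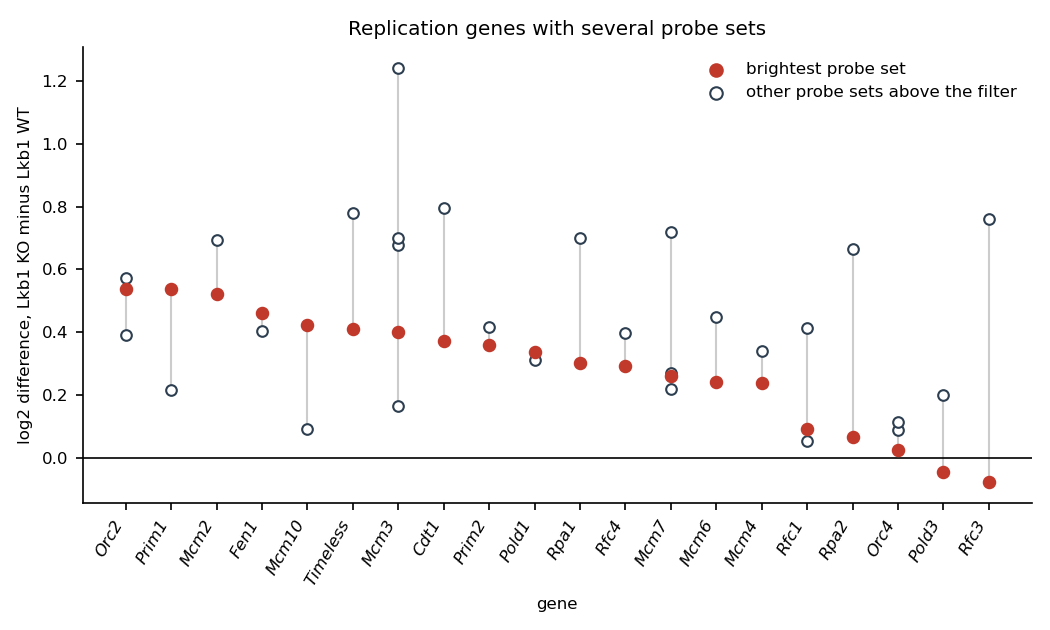
Log2 difference, Lkb1 KO minus Lkb1 WT, in the brightest probe set (filled) and the other probe sets above the filter (open) of the 20 replication genes with more than 1, ordered by the brightest. All open points lie above 0, and in 20 of 28 cases the open point lies above the filled one.

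Further genes of replication, from a list of 34 outside the 49, were also mostly higher. Of 25 tested, 21 had a positive difference, 4 rose and none fell, with a median of 0.23 log2 units. They were the exonuclease gene Exo1 (0.66 ± 0.11, limma adjusted p = 0.0245), the MCM-binding gene Mcmbp (0.55 ± 0.11, adjusted p = 0.0283), the chromatin remodeller gene Hells (0.50 ± 0.10, adjusted p = 0.0324) and the helicase gene Recql4 (0.65 ± 0.15, adjusted p = 0.0425). Enzymes that supply deoxynucleotides had 3 of 8 that rose and none that fell, with a median of 0.36. These were both main subunits of ribonucleotide reductase, Rrm1 (0.65 ± 0.11, limma adjusted p = 0.0245) and Rrm2 (0.52 ± 0.10, adjusted p = 0.0283), and the dUTPase gene Dut (0.66 ± 0.12, adjusted p = 0.0253), while thymidine kinase gene Tk1 was at 0.61 (adjusted p = 0.0582). Without 1 sample, the count of 4 ranged from 0 to 1. The count of 3 was 3 without KO 6 and none in each of the 6 other such fits.

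Regulators of S-phase entry were mixed. Of 20 tested, 3 rose and 1 fell, with a median of 0.10 log2 units. The kinase inhibitor gene Cdkn1a, which encodes p21 and restrains entry into S phase, rose most, with normalized signals of 360.1, 342, 552 and 564 in KO 4 to 7, against 98, 120.5 and 181 in WT 5 to 7 (1.66 ± 0.24, limma adjusted p = 0.0179). All 4 KO arrays stood above the WT arrays. Cyclin E gene Ccne2 (0.53 ± 0.12, adjusted p = 0.0436) and the repressor gene E2f8 (0.43 ± 0.09, adjusted p = 0.0308) rose, and Mycn fell by 0.52 (SE 0.12, limma adjusted p = 0.0456). Every KO value lay above every WT value for 7 of the 20 (11.4% of all genes) and below for 4 (12.7%). The 4 were Mycn and, short of the threshold, Rbl2 at -0.39, E2f5 at -0.48 and the kinase inhibitor gene Cdkn1b at -0.59 (limma adjusted p = 0.0583). E2f1, an activator of the E2F family, was at 0.07 with a 95% interval of -0.34 to 0.48. Of 19 mitosis genes tested 4 rose and none fell, with a median of 0.27, led by Bub1 (0.54 ± 0.10), Kif20a (0.75 ± 0.17), Birc5 (0.69 ± 0.15) and Cdk1 (0.38 ± 0.09), and the proliferation marker Mki67 was at 0.20 (limma adjusted p = 0.345). Without 1 sample the mitosis count was 0 in each of the 7 fits and the S-phase entry count that rose was 0 or 1. In the fit without KO 5, 1 S-phase entry regulator fell, and none did in the other fits. The fall of Mycn passed in none of these 7 fits, and with the scaling as deposited its difference was -0.10 (limma adjusted p = 0.753). Whether the replication genes differ from these lists was not tested.

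**Figure D5:**
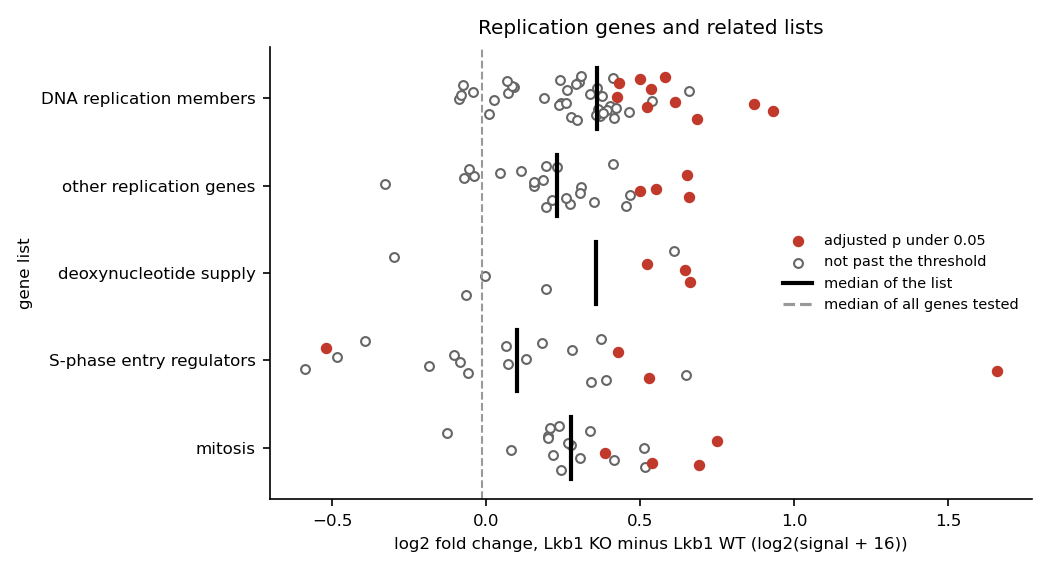
Log2 fold change, Lkb1 KO minus Lkb1 WT, of each tested gene in the replication set and in 4 related lists, red where the adjusted p is under 0.05, with a bar at each list's median and a dashed line at the median of all genes tested. The replication set has its median at 0.36, the S-phase entry regulators spread to both sides at 0.10, and Cdkn1a is the point furthest right.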

How the data were processed

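The authors deposited 1 linear signal intensity for each probe set of an array, and the submitters' processing notes name MAS5, whose settings and scaling are not stated there. Per the labels' protocols, each sample used 15000 to 20000 cells, and about 10 ng of RNA was amplified. Of 22690 probe sets in the deposited table, 64 were controls. The sample descriptions name an array version with more probe sets than that, and which design was used is not settled here, so counts of probe sets, and genes without one, refer to this table. Names came from the platform annotation (20393 probe sets with 1 symbol, 691 with several, 1555 with none), updated through the RefSeq gene table of GRCm38.p6, where 20364 matched. Intensities were analysed as log2(signal + 16) after quantile normalization over non-control probe sets, a scaling taken because the deposited arrays differed in brightness. The fold change on this scale understates dim genes. Normalized signals in the text are 2 to the power of these values, minus 16. Genes above the 40th percentile of mean log2 signal were tested by lmFit and eBayes of limma 3.58.1, under R 4.3.3 (intercept and genotype, 5 residual degrees of freedom) and Benjamini-Hochberg adjustment over 8077 genes. Background, 13.64 signal units, is the 95th percentile of 27 control probe sets for transcripts not added. The number of arrays limits the precision. On simulated data for this comparison with 8077 genes, limma recovered 84 of 100 genes changed by 1 log2 unit and 31 of 100 changed by 0.5, with 5 false calls. Alternatives covered scaling, pseudocount, filter, probe set use, array weights, covariate, replicate block and leaving out each sample. Members and lists were chosen with earlier results of these data known. Signals of every array are given for Mcm2 to Mcm7, the members past the threshold and the 2 of lowest p per role, and further lists name up to 4 genes of lowest p with Cdkn1a, Mki67 and Stk11. Other genes, promoters and probe sets named were chosen after their values were seen.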

Additional observations from a re-analysis of the deposited data

Results flagged for a closer look

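Among 18 members whose values are given for every array, 1 had a KO array that stood apart from the other 3 by Dixon's criterion, where chance gives about 1 group in 20. Lig1 read 932 in KO 6, against 1074 to 1099 in the other KO arrays and 769.5 to 854 in the WT arrays, so it lay above WT there as well.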

How the results depend on the processing

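The count of 10 members higher in KO was 32 in the scaling as deposited, 19 with median centring, 18 with a pseudocount of 64, 20 with the filter at the 60th percentile, 2 with no filter, and 0 with the Actb ratio as a covariate. It was 8 to 11 with a pseudocount of 1, all probe sets averaged, array weights, or cyclic loess, which was chosen after seeing the data. No member was lower in any of these fits. Without 1 sample in turn the count ran from 0 to 4, and calls over all genes, 439 in the main analysis, from 44 to 194. Over all genes the calls were 1414 as deposited (96.7% of them higher, against 45.6%), 713 with median centring (76.3% higher), 701 with a pseudocount of 64, 74 with no filter, 715 at the 60th percentile, and 0 with the Actb ratio as a covariate, where 830 had an unadjusted p under 0.05. The Actb ratio itself split the arrays by group, so the fit with it cannot tell ratio and genotype apart. The members' median of 0.36 was 0.74 as deposited, 0.47 with median centring and 0.24 with the Actb ratio. The median of all genes was 0.34 as deposited and 0.07 with median centring, and the members exceeded it by 0.39 in both, against 0.37 in the main analysis.

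With the replicate number as a block, which uses the numbers 5, 6 and 7 shared by both groups, 0 members and 1 gene in all passed. The members' median was 0.32. At an unadjusted p under 0.05, 21 members were higher, and the share of all genes at that level is not given here. KO 4 has no WT sample of its number and does not inform the difference there. That fit also has fewer residual degrees of freedom than the main fit. Deviations of same-numbered samples correlated across genes at 0.03, 0.10 and 0.05. KO 5, 6 and 7 each correlated best with the WT sample of their own number, while WT 5 correlated best with KO 4 (0.07). These weak correlations do not settle whether a shared number marks a shared batch, and the labels do not say. The main fit does not use the numbers. The next counts cover the genes that the processing section says were named by rule, not every gene in the text. Over these genes and all settings, no value reversed, 374 kept their side of the threshold, 245 lost a call and 27 gained one. Other members near 0 changed sign when 1 sample was left out, namely Orc4, Dbf4, Rfc2, Rfc3, Rpa2, Pola2 and Pold3. The difference of Pola2, for instance, ranged from -0.22 to 0.14 log2 units. Dim signals near background limit the smallest differences, and 7 probe sets of members lay below the filter.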
